A study of Mus musculus with 2 samples.

Results

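Cells with Crh mRNA were examined in the newborn mouse hypothalamus, in single-cell Drop-seq data, where each captured mRNA molecule carries a unique molecular identifier (UMI). A Crh cell was defined by its counts, as a cell with at least 300 detected genes, at least 2 Crh UMIs, fewer than 10 Avp UMIs and fewer than 10 Oxt UMIs. The rule took 67 of 5260 cells, 29 of 2806 in the control library and 38 of 2454 in the Sim1Het library. The label given to these cells was Crh parvocellular stress neurons, and the data bore it out only in part, as given with the clusters. Of the control members, 8 of 29 shared a cluster with Avp and Oxt cells, and Nr3c1, a marker given with the label, was detected in 6 of 29. The members are therefore called Crh cells here.

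CRH, the peptide encoded by Crh, starts the hormonal stress response. Parvocellular neurons of the paraventricular nucleus (PVN) of the hypothalamus release it at the median eminence, the pituitary answers with ACTH, and the adrenal cortex with glucocorticoids, which feed back on the same neurons through the glucocorticoid receptor, encoded by Nr3c1. Many of these neurons can also make vasopressin (Avp), whereas large magnocellular neurons of the same nucleus make vasopressin or oxytocin (Oxt) in bulk. Sim1 encodes a transcription factor that is needed for the PVN to form.

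Both libraries came from CD-1 mice at postnatal day 1 to 4, and each pooled the hypothalami of 6 pups, though the labels elsewhere allow fewer. All pups carried Sim1-Cre and the Ai14 tdTomato reporter, the control genotype being Sim1-Cre;tdTomato+/-, and the second library added Sim1+/- (Sim1-Cre;tdTomato+/-;Sim1+/-), the loss of a Sim1 copy. Viable tdTomato+ cells were sorted, so a cell entered the data if it or a precursor had driven Cre from Sim1, whatever it expressed at the time of the sort. With 1 library per genotype, no test was possible: every contrast between genotypes compares 2 libraries, intervals (95%) cover counting error only, and pup, age mix and preparation cannot be told apart from genotype. The members were chosen on their counts, so what follows describes them and tests nothing.

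The deposited tables held 5283 barcodes, none shared between the libraries, and 23 with fewer than 300 genes were left out. A cell had a median of 1772.5 UMIs in the control and 1583 in the Sim1Het library. Crh cells were deeper than the rest, with a median of 3480 against 1764 UMIs in the control and 1873.5 against 1575 UMIs in the Sim1Het library, and together they held 107847 and 91649 UMIs. A deeper cell more easily reaches 2 Crh UMIs, and the part of depth in the choice of members was examined by thinning, given with the shares of cells. Doublets were not removed. Levels are counts per 1000000 UMIs (CPM), from the UMIs summed over the cells of a class.

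Crh itself was carried unevenly. Crh cells held 191 Crh UMIs in the control and 356 in the Sim1Het library, with a median of 4 and 4.5 per cell and a maximum of 31 and 48. At least 10 Crh UMIs were found in 3 of 29 control and 11 of 38 Sim1Het cells. The summed level was 1771 CPM in control and 3884 CPM in Sim1Het Crh cells, a level that the rule itself sets in part. Just inside the Crh threshold, 6 cells of each library had exactly 2 UMIs, and just outside it 38 control and 25 Sim1Het cells within the Avp and Oxt limit had exactly 1. The gene lies on chromosome 3 (19693401 to 19695396, minus strand, mm10 coordinates of GENCODE M21).

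The limit on Avp set apart more cells in the control library than in the Sim1Het library. Among cells with at least 2 Crh UMIs, 14 of 43 control cells were left out, all with at least 10 Avp UMIs, from 11 to 243 per cell. In the Sim1Het library 3 of 41 were left out, with 11, 16 and 31 Avp UMIs. Inside the rule the highest Avp count was 5 in the control and 6 in the Sim1Het library, and 11 of 29 and 15 of 38 Crh cells had at least 1 Avp UMI. Such a UMI was also found in 623 of 2777 control and 257 of 2416 Sim1Het other cells, so a low Avp count alone does not mark co-expression. Cells with both Crh and high Avp were thus mostly control cells, and they are not among the Crh cells described here.

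**Figure D1:**
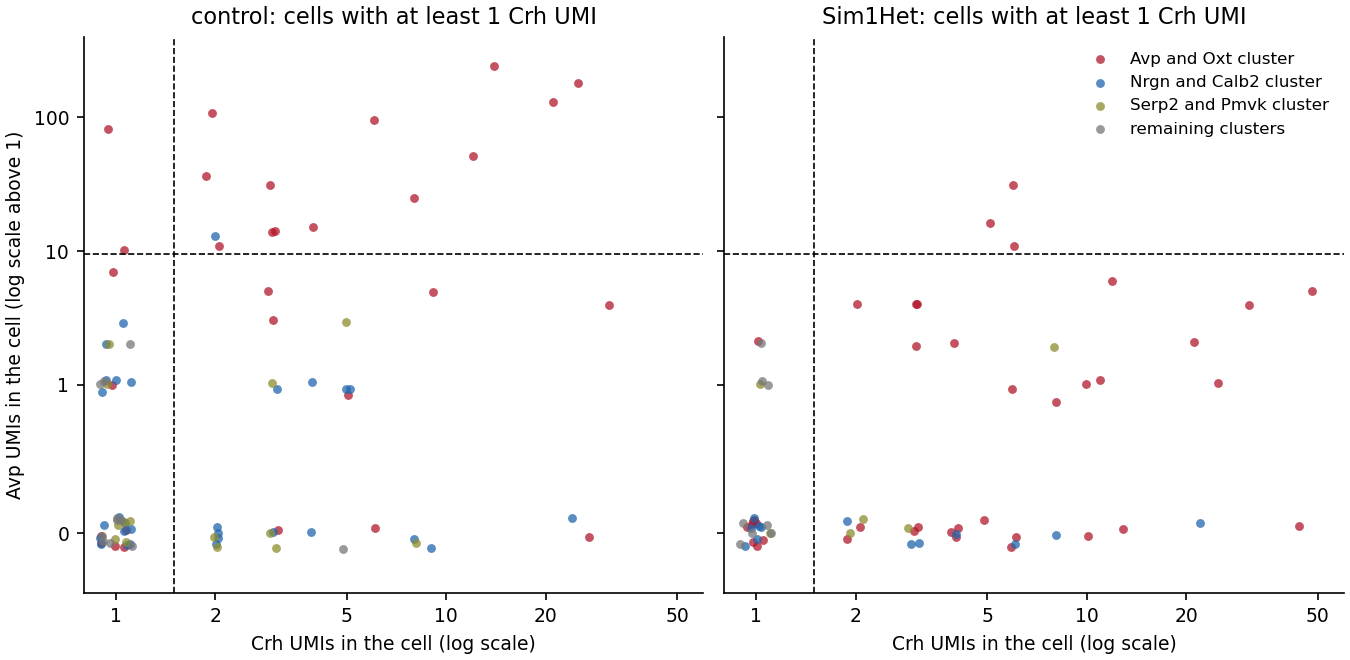
Avp UMIs (y axis, log scale above 1) against Crh UMIs (x axis, log scale) of each cell with at least 1 Crh UMI, by library, with a small random shift and colours for clusters made without Crh, Avp and Oxt. Dashed lines mark the rule (2 Crh UMIs, 10 Avp UMIs): members lie to the lower right, and the upper right holds 14 control and 3 Sim1Het cells.

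Crh cells made up 1.03% (exact Clopper-Pearson interval 0.693 to 1.48) of control cells and 1.55% (1.1 to 2.12) of Sim1Het cells, a ratio of 1.5 (0.900 to 2.52). Without the limit on Avp and Oxt the shares were 1.53% and 1.67%, a ratio of 1.09. After each cell had been thinned to 857 UMIs, which left out 156 control and 613 Sim1Het cells, the rule took 12 of 2650 control cells (0.453%) and 25 of 1841 Sim1Het cells (1.36%), a ratio of 3.0 (1.45 to 6.55). Thinned and without the hormone limit, it took 0.717% and 1.41%. The share was thus higher in the Sim1Het library in each of these counts, but its size ran from 1.09 to 3.0 times with the limit on Avp and with depth. With 1 library per genotype none of these ratios has a replicate check.

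Crh UMIs were few in cells that should lack them, but these counts bound the background only loosely. In the cluster led by astrocyte and radial glia markers, which should lack Crh, 1 of 55 control cells (1.82%, 0.046 to 9.72, median 1350 UMIs) and 0 of 58 Sim1Het cells (a share of up to 5.17% at 3 counts, median 903.5 UMIs) had a Crh UMI, and none had 2. The control interval also holds the 6.2% and 4.19% of control cells with a Crh UMI in the Nrgn and Calb2 and the Serp2 and Pmvk cluster, described below. In the remaining clusters, the 3 that held most Crh cells aside, 11 of 1774 control and 8 of 1772 Sim1Het cells had a Crh UMI. As those 3 were set aside for their Crh cells, a low share in the rest was given in advance.

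To place the Crh cells by their other genes, all cells of both libraries were clustered without Crh, Avp, Oxt, Sim1, Irx and mitochondrial genes. Genes of chromosome Y, Xist and Tsix were left out too. Clusters are called by leading genes. The cluster led by Avp, Oxt, Angpt1, Ptbp3 and Dlk1, with Nr3c1 and Pou3f4 also among its 10 leading genes, held 8 of 29 control Crh cells (27.6%, 12.7 to 47.2) and 27 of 38 Sim1Het Crh cells (71.1%, 54.1 to 84.6). A cluster led by Gh, the growth hormone gene of the pituitary, Nrgn and Calb2 (the Nrgn and Calb2 cluster) held 13 control and 7 Sim1Het Crh cells, and a shallow cluster led by Serp2 and Pmvk held 7 and 4. The last control Crh cell lay in the cluster led by Trh. In this clustering most Sim1Het Crh cells thus shared a cluster with Avp and Oxt cells, and most control Crh cells did not. Part of this follows from the rule: of the cells left out for Avp, 13 of 14 in the control and 3 of 3 in the Sim1Het library lay in the Avp and Oxt cluster. With them, 21 of 43 control and 30 of 41 Sim1Het cells with at least 2 Crh UMIs lay there. Of the whole Avp and Oxt cluster these were 21 of 230 control cells (9.13%) and 30 of 124 Sim1Het cells (24.2%). The cluster that held most Crh cells changed with the clustering. At a finer resolution of 2 it was led by Crh and Nr3c1, with Avp among its 10 leading genes, and held 11 control (37.9%) and 27 Sim1Het (71.1%) Crh cells, while a separate cluster led by Avp and Oxt held 0 and 2. With Crh, Avp and Oxt kept among the genes used, a cluster led by Crh and Nr3c1 held 16 control (55.2%) and 30 Sim1Het (78.9%) Crh cells, and the one led by Oxt and Avp held none. In the clustering used throughout, the Avp and Oxt cluster held 12 of the 14 Crh cells that had at least 10 Crh UMIs.

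**Figure D2:**
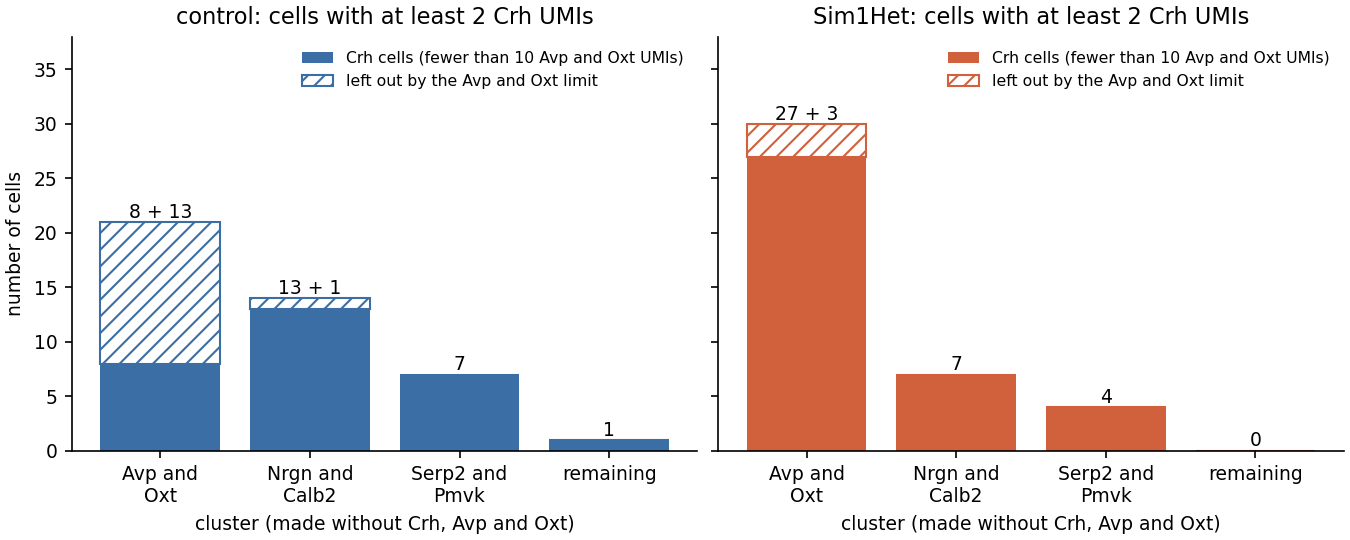
Number of cells with at least 2 Crh UMIs in each cluster, by library. Solid bars are Crh cells and hatched bars cells left out by the Avp and Oxt limit: the Avp and Oxt cluster holds 8 + 13 control and 27 + 3 Sim1Het cells.

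The 4 markers given with the label beside Crh were at least 2-fold higher in Crh cells than in all other cells of the same library, in both libraries. Markers and members were chosen with earlier results of these data known, so this describes the cells and does not test the label. Nr3c1, the glucocorticoid receptor, stood at 129.8 against 31.9 CPM in control cells and 273 against 35.9 CPM in Sim1Het cells (log2 ratios 2.02, 1.13 to 2.80, and 2.93, 2.26 to 3.53), from 14 and 25 UMIs. Dlk1, an imprinted gene for a Notch-like membrane protein, stood at 306 against 108 CPM in control cells and 676 against 58.5 CPM in Sim1Het cells (log2 ratios 1.51 and 3.53). For Pou3f4, a POU transcription factor gene, the log2 ratios were 1.14 and 2.63, and for Rasgrf1, which encodes a calcium-responsive activator of Ras, 1.3 and 2.03. They were not shared evenly. At least 2 of the 4 were detected in 10 of 29 control and 22 of 38 Sim1Het Crh cells, none in 7 and 6, and the cells with none had a median of 3753 UMIs in the control and 1146.5 in the Sim1Het library. Among all other cells, 72.9% in the control and 76.7% in the Sim1Het library had none of the 4. Inside the Avp and Oxt cluster, Crh cells held 13 of the 14 control and 25 of the 25 Sim1Het UMIs of Nr3c1, and 7 of 9 and 17 of 18 of Rasgrf1. The Nr3c1 level there was 644 CPM in control and 459 CPM in Sim1Het Crh cells, and 11.4 and 0 CPM in the Crh cells outside. For Pou3f4 the levels were 347 and 275 CPM inside and 57.0 and 108 CPM outside. Dlk1 outside stood at 171 CPM in the control and 350.2 CPM in the Sim1Het library, against 108 and 58.5 CPM in all other cells. The 21 control and 11 Sim1Het Crh cells outside, with 87666 and 37126 UMIs, thus held too few Nr3c1 and Rasgrf1 UMIs to tell their level from that of all other cells. The summed Dlk1 level outside was well above that of all other cells in the Sim1Het library. In the control it was nearer to theirs and rests on part of 33 UMIs, so it is not called higher there.

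Over all genes, 46 of 7602 (0.605%) were at least 2-fold higher in Crh cells in both libraries, and in 20 of them both intervals lay above 0. The median log2 ratio of all genes was -0.06 in the control and -0.08 in the Sim1Het library. The named genes were ranked by the interval bound nearest to 0 in the weaker library, so well-counted genes with a moderate ratio stand beside scarce ones with a large ratio. Genes for secretion were among the best counted. Scg2, which encodes the granin secretogranin II of dense-core vesicles, stood at 2281 against 1190 CPM in control cells and 2695 against 1383 CPM in Sim1Het cells and was found in 27 of 29 and 38 of 38 Crh cells (log2 ratios 0.94 and 0.96). Pcsk1n, whose product proSAAS restrains the prohormone convertase PC1, had log2 ratios of 0.63 and 1.23, and Scg3, for another granin, of 0.64 and 0.97. All 3 were above the other cells in both libraries, and of these values only that of Pcsk1n in the Sim1Het library passed 2-fold. Among receptors, Sstr1, which encodes a somatostatin receptor, stood at 74.2 against 20.4 CPM in the control and 207 against 20 CPM in the Sim1Het library, from 8 and 19 UMIs (log2 ratios 1.86 and 3.37). Of its 8 control UMIs, 4 came from a single cell. Sema3c, for a secreted axon guidance cue of the semaphorin family, stood at 213 against 27.1 CPM in control cells and 109 against 21.5 CPM in Sim1Het cells (log2 ratios 2.98, 2.28 to 3.61, and 2.34, 1.24 to 3.27), and Plxnc1, for a semaphorin receptor of the plexin family, had log2 ratios of 0.99 and 1.2. The adhesion genes Pcdh17 (0.93 and 0.64) and Lsamp (0.71 and 0.59) were higher by less than 2-fold.

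Transcriptional regulators were few among the named genes. Otp, a homeobox gene needed for PVN peptide neurons, stood at 603 against 345 CPM in control cells and 633 against 217 CPM in Sim1Het cells (log2 ratios 0.80 and 1.54), and Id2, for an inhibitor of bHLH factors, at 306 against 121 CPM in control cells and 218 against 91.0 CPM in Sim1Het cells (log2 ratios 1.34 and 1.26). Otp was found in 22 Crh cells of each library, both inside and outside the Avp and Oxt cluster, at 595 and 605 CPM in control cells and 550.2 and 754 CPM in Sim1Het cells. Otp was thus present in the Crh cells of both kinds, whereas nearly all Nr3c1 UMIs lay inside the cluster. The other named genes covered several functions. Gpx3, for a secreted glutathione peroxidase, had log2 ratios of 1.39 and 1.43, and Cd302, for a C-type lectin receptor, of 2.05 and 3.02. Akap12, for an anchor of protein kinase A, had 1.07 and 1.06, and Saraf, for a regulator of store-operated calcium entry, 0.71 and 1.16. Stk39, for a kinase that acts on chloride cotransporters, stood at 1.49 and 1.3, Nap1l5, an imprinted gene, at 0.72 and 1.19, and Tusc3, for a subunit of the oligosaccharyltransferase complex, at 0.75 and 0.84. Cep83, for a centriole protein, had 1.19 and 1.75, and Mtch1, for a mitochondrial carrier homologue, 0.85 and 0.87. For Tmem255a, Fam159a and Bex2 the log2 ratios lay between 0.46 (Bex2, control) and 2.55 (Tmem255a, Sim1Het).

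**Figure D3:**
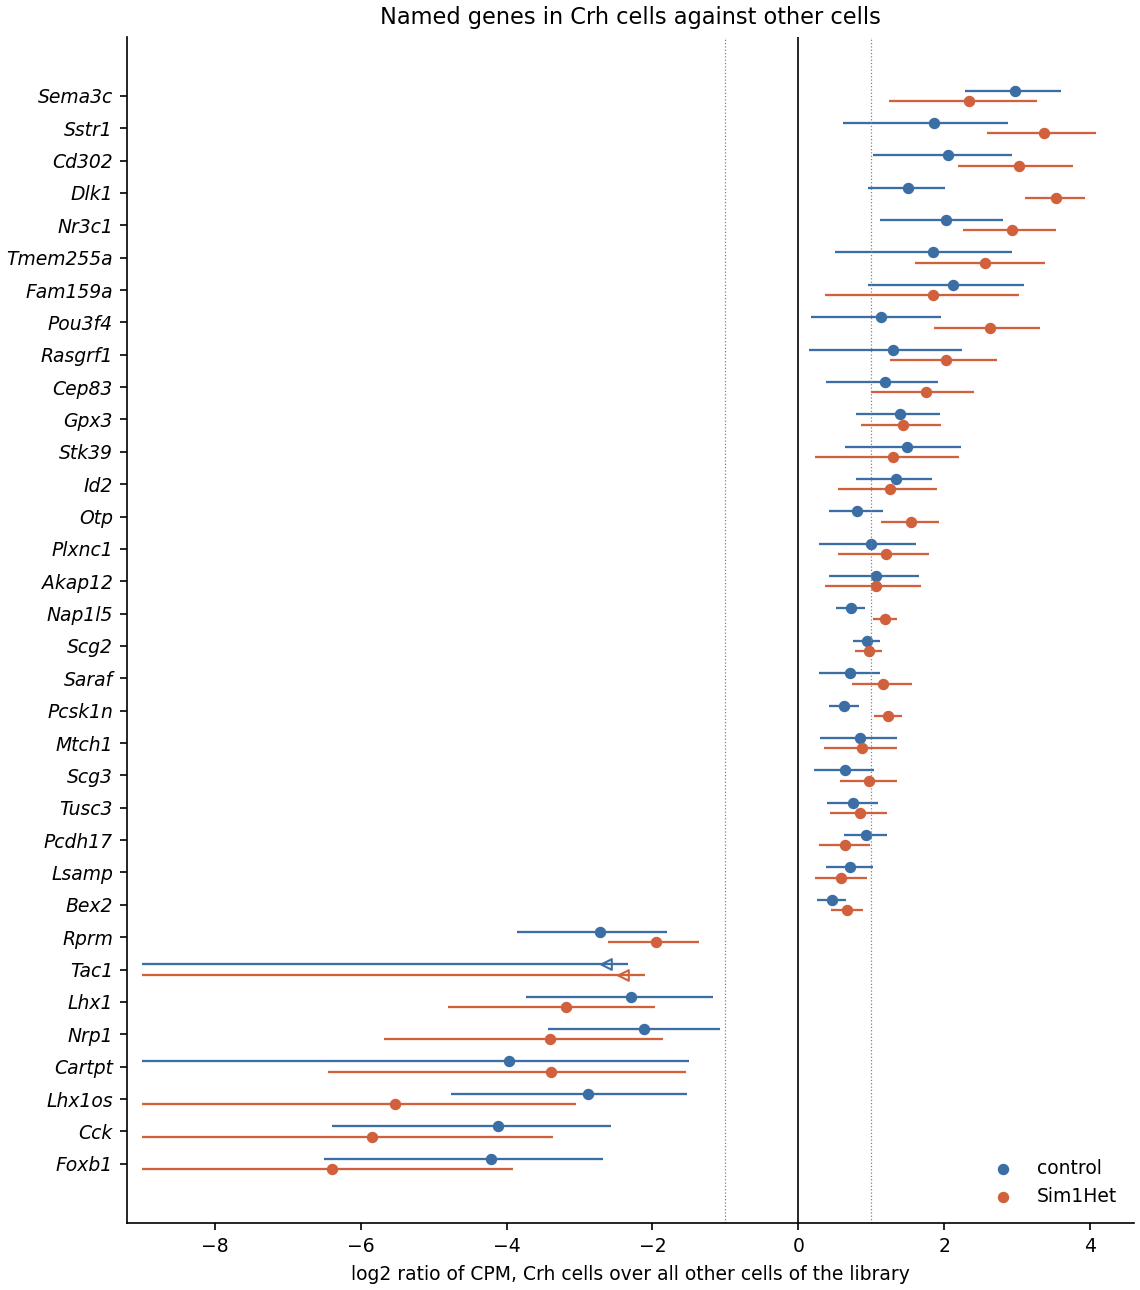
Log2 ratio of CPM, Crh cells over all other cells of the same library (x axis), for the named genes and the markers (y axis), with 95% counting intervals that are drawn no farther than -9. Open triangles mark Tac1, with no UMI in Crh cells, set at a floor of 3 UMIs, and dotted lines mark 2-fold: Dlk1 and Pou3f4 stand apart between the libraries, Gpx3, Scg2 and Akap12 lie close.

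Crh is a textbook target of CREB, which binds the cAMP response element (CRE, TGACGTCA, or its half-site TGACG) in promoters, so the promoters of the higher genes were searched for these letters on both strands. Of the 26 genes (24 ranked and 2 further markers), 20 had a promoter in the RefSeq table used (GRCm38.p6), and the 250 bases before the start site were read. The full element stood only in Scg2 among them, against 1.55% of 32851 promoters of the table. The half-site stood in 8 of 20 genes (Bex2, Cep83, Dlk1, Lsamp, Mtch1, Rasgrf1, Scg2 and Scg3), against 17.8% of promoters and 19.8% of genes. A match is a description and shows no binding. Scg2 is shown for its full element, and Rasgrf1 and Dlk1 as markers with a half-site. The sequences run 5′ to 3′ along the gene, with the element in capitals (on the other strand a half-site reads CGTCA), from chr1:79440027-79440276 (minus strand), chr9:89909525-89909774 (plus strand) and chr12:109452573-109452822 (plus strand).
Scg2: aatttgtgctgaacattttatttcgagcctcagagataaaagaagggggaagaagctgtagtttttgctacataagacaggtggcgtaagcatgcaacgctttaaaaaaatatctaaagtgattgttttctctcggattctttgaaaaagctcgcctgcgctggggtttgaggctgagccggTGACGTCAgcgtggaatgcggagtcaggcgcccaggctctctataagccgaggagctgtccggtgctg
Rasgrf1: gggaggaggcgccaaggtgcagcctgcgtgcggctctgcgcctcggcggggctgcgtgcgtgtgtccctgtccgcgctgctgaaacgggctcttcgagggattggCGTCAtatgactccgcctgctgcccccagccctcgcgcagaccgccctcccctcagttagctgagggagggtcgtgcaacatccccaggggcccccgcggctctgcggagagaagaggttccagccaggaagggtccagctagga
Dlk1: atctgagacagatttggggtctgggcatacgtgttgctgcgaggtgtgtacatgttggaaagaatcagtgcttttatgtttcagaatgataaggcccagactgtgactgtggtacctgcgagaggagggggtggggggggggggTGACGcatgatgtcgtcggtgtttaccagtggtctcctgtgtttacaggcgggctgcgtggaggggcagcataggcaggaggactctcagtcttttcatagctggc
In Scg2 the element began 68 bases before the start site, and the half-sites of Rasgrf1 and Dlk1 began 145 and 106 bases before it.

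Lower in both libraries by at least 2-fold were 186 of 7602 genes (2.45%), 40 of them with both intervals below 0. Several of the named ones are known as markers of other regions or other peptide neurons. Foxb1, a forkhead gene of the mammillary region, stood at 27.8 against 518 CPM in control cells and 10.9 against 915 CPM in Sim1Het cells, from 3 and 1 UMIs. Lhx1, a LIM homeobox gene, had log2 ratios of -2.29 and -3.19, and the neighbouring noncoding gene Lhx1os -2.88 and -5.52. Cck, for cholecystokinin, stood at 27.8 against 485 CPM in control cells and 10.9 against 629 CPM in Sim1Het cells. Tac1, for substance P, had no UMI in Crh cells of either library against 172 and 174 CPM in the other cells, a log2 ratio of at most -2.63 and -2.41 at a floor of 3 UMIs per library. Cartpt (-3.97 and -3.40), the p53 target Rprm (-2.72 and -1.95) and the semaphorin receptor gene Nrp1 (-2.12 and -3.40) were lower too. Of the Nrp1 UMIs in control Crh cells, 5 of 7 came from 1 cell.

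By function, few lists of genes set Crh cells apart as a whole. Counts below give members at least 2-fold higher or lower in both libraries, against 0.605% and 2.45% of all genes. Of 11 measured steroid receptors and chaperones, Nr3c1 was higher and none lower. Hsp90ab1, whose product holds the receptor in its hormone-binding state, stood near the other cells (0.03 and 0.01). None of 7 glucocorticoid target genes was called in either direction. Cdkn1a, the most counted of them, stood at 129.8 against 272 CPM in control cells and 164 against 325 CPM in Sim1Het cells, lower in the control by more than 2-fold (-1.07) and in the Sim1Het library by just under 2-fold (-0.99). In the list of cAMP, Ras and CREB signalling, 1 of 22 was higher (Rasgrf1) and none lower. The protein kinase A genes Prkar1a (0.19 and 0.55) and Prkacb (-0.09 and 0.29) had intervals that held 0.

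Of 13 PVN transcription factors, Pou3f4 was higher and Pou3f3, Zfhx3 and Zfhx4 were lower. Pou3f2, needed for PVN neurons to mature, stood at 111 against 62.0 CPM in control cells and 218 against 55.3 CPM in Sim1Het cells (0.84, -0.12 to 1.66, and 1.98, 1.25 to 2.63). Zfhx3 had 11 control and 1 Sim1Het UMIs in Crh cells (log2 ratios -1.1 and -4.36). Among 17 transcription factors of other regions, 5 were lower (Nkx2-1, Foxb1, Lhx1, Nfib and Onecut2) and Foxp2 higher. Foxp2 had log2 ratios of 1.97 and 1.06, the second from only 4 UMIs.

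Of the transmitter genes, that of a glutamate transporter was found and those of GABA neurons were not. Slc17a6, for the vesicular glutamate transporter VGLUT2, was found in 19 of 29 and 22 of 38 Crh cells, at 473 against 609 CPM in control cells and 622 against 786 CPM in Sim1Het cells. Gad2, for a GABA-making enzyme, had no UMI in any Crh cell, and neither had Gad1, Slc32a1, Dlx1, Dlx2 or Dlx5. Of 14 other neuropeptide genes, 7 were lower (Trh, Nts, Tac1, Cck, Cartpt, Adcyap1 and Pmch) and Penk was higher, but 14 of its 15 control UMIs came from 1 cell. Sst split the libraries through a single cell, with 0 UMIs in control Crh cells and 40 in Sim1Het Crh cells, 38 of them in 1 cell.

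None of 19 measured genes for prohormone processing passed 2-fold in both libraries, yet their medians, 0.27 (control) and 0.37 (Sim1Het), lay above those of all genes. Pam, for the enzyme that amidates peptides such as CRH, stood at 139 against 77.1 CPM in control cells and 218 against 93.2 CPM in Sim1Het cells. No GABA or glutamate receptor gene of 26 was called. Gria2, for an AMPA receptor subunit, was lower by close to or over 2-fold (-0.98 and -1.36). Sstr1 was higher among 11 measured hormone, amine and peptide receptors and none was lower. Of 29 ion channel genes 2 were lower (Kcnj3 and Cacna1g), each with 1 UMI in the Crh cells of either library and with intervals that held 0. Of 23 imprinted genes Dlk1 was higher and Mirg and Cdkn1c lower, and the abundant Nnat had log2 ratios of 0.27 and 0.84. Among 40 genes of axon guidance and adhesion, Sema3c was higher and Nrp1, Epha7 and Pcdh15 lower. Hpca alone was lower of 25 genes of calcium binding, and Jun alone higher of 11 immediate early and heat shock genes, with 11 of its 22 Sim1Het UMIs in 1 cell. None was called among 10 immature neuron genes, 20 mature neuron and synapse genes and 17 genes of energy metabolism.

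Of the CRH system itself, only the ligand was seen at a usable level. Crhr1, for the CRH receptor, and Ucn3, for a related peptide, had no UMI in Crh cells, and Crhbp, for the CRH-binding protein, had 1 UMI in each library. None of them reached 100 UMIs in both libraries. Sim1, used for the sort through its Cre driver, had 17 UMIs in control and 13 in Sim1Het Crh cells, 158 and 142 CPM, against 111 and 90.8 CPM in the other cells. At this depth the difference between the libraries in Crh cells was not detectable.

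Markers of most other cell types were absent or below the other cells. All 7 microglia, 5 endothelial and 6 pericyte or fibroblast markers, and all 6 GABAergic markers, had no UMI in Crh cells of either library. In the other control cells these kinds summed to 20.9, 14.5, 39.4 and 49.6 CPM, in that order. In the other Sim1Het cells they summed to 2.83, 1.13, 10.9 and 63.2 CPM. At the levels of the first 3 kinds few UMIs or none would be found in Crh cells, so their absence says little. The 11 astrocyte and radial glia markers summed to 371 CPM in control and 502 CPM in Sim1Het Crh cells, below the 626 and 828 CPM of the other cells, with 4 and 6 of them at 0. The 8 pan-neuronal markers summed to 12768 and 8118 CPM, against 12458 and 10909 CPM. The 7 oligodendrocyte markers, at 102 against 105 CPM in the control and 109 against 89.6 CPM in the Sim1Het library, from 11 and 10 UMIs, were not below them, with 4 and 5 of the 7 at 0. The 4 tanycyte or ependyma markers gave 1 and 0 UMIs. The 7 pituitary markers, of which 4 and 6 were at 0, summed to 195 CPM in control and 21.8 CPM in Sim1Het Crh cells, also below the other cells (473 and 117 CPM).

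The Crh cells inside and outside the Avp and Oxt cluster differed in several of the named genes. These genes helped to make the clusters, so this is a description. Inside, Crh was higher, at 4311 and 5374 CPM against 1186 and 1697 CPM outside. Scg2 stood at 4063 and 3778 CPM inside and at 1871 and 1104 CPM outside. Dlk1 went the same way (892 and 899 against 171 and 350.2 CPM), as did Lrpap1, for a chaperone of lipoprotein receptors (694 and 917 against 125 and 162 CPM), and Resp18, for a protein of the secretory pathway (1487 and 2843 against 548 and 862 CPM). Tuba1a and Stmn2 were higher outside. Tuba1a, for an alpha-tubulin of young neurons, stood at 9103 and 6464 CPM outside and 5748 and 3375 CPM inside, and Stmn2, for a microtubule regulator of growing axons, at 8259 and 5522 against 5153 and 3301 CPM. Sema3c UMIs fell mostly to the cells outside, 21 of 23 in the control and 7 of 10 in the Sim1Het library, with intervals of the difference that held 0 (-4.41 to 0.76 and -4.36 to 0.35, inside over outside). Most Sema3c UMIs thus came from Crh cells outside the cluster and most Nr3c1 UMIs from those inside, but for Sema3c more cells and depth outside go into that count. The cells outside were also deeper, with a median of 3860 (control) and 2996 (Sim1Het) UMIs against 2022 and 1795 inside, and the part of depth or of doublets in this split was not tested.

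**Figure D4:**
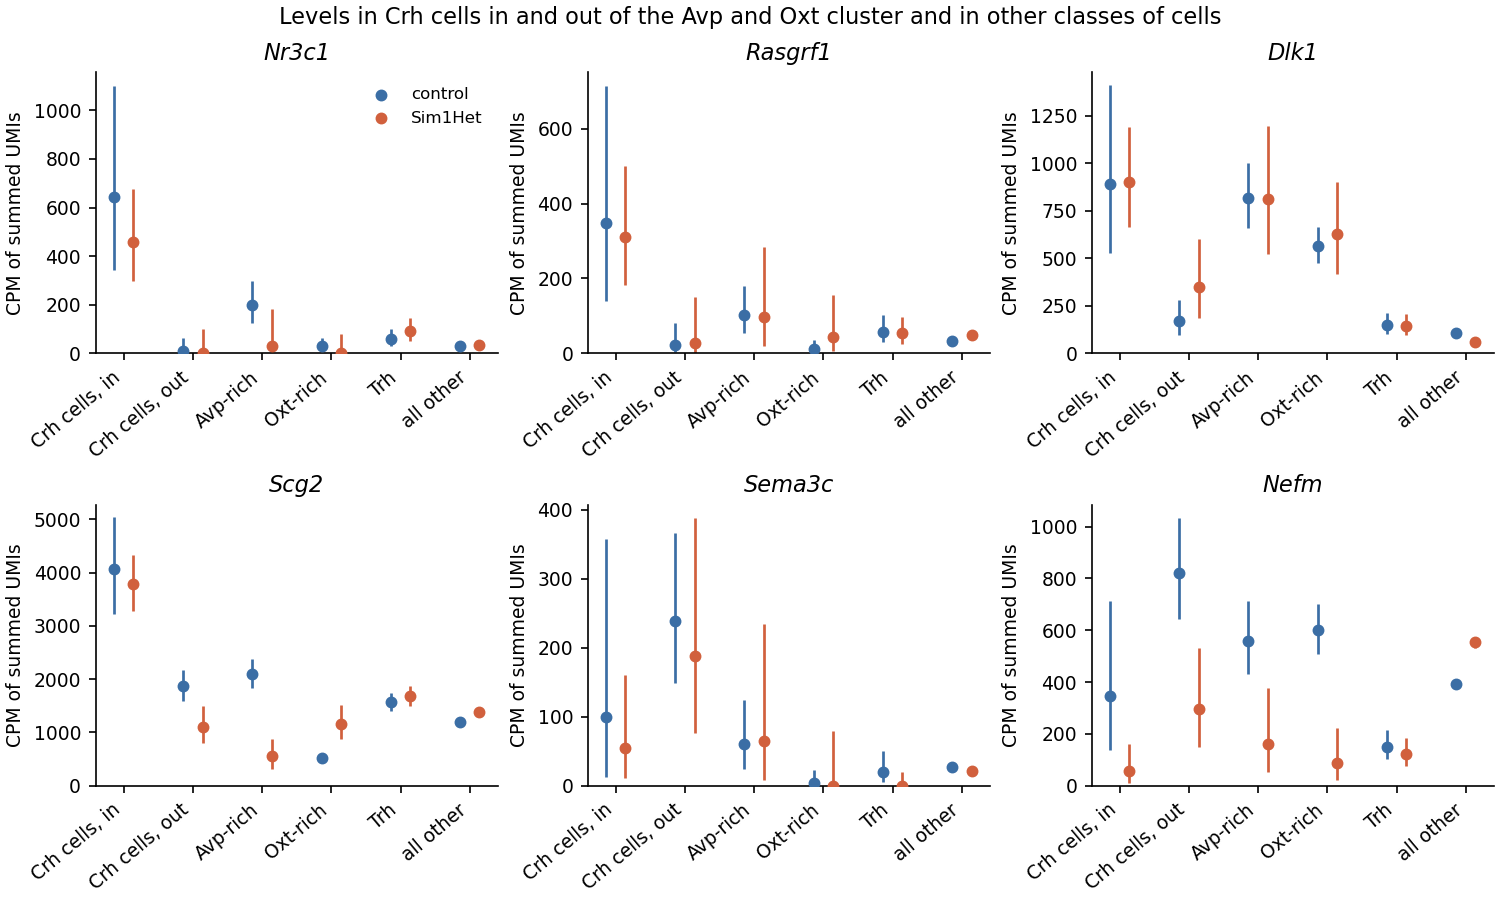
CPM of summed UMIs with exact Poisson intervals (y axis) of 6 genes in Crh cells inside and outside the Avp and Oxt cluster, in Avp-rich, Oxt-rich and Trh cells and in all other cells (x axis), by library. Nr3c1, Rasgrf1 and Scg2 are highest in the Crh cells inside the cluster in both libraries, and Sema3c in those outside.

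Avp-rich, Oxt-rich and Trh cells were set beside the Crh cells of the Avp and Oxt cluster. Avp-rich cells (at least 10 Avp and fewer than 10 Oxt UMIs, 61 control and 18 Sim1Het cells) had 818 and 810.3 CPM of Dlk1, and Oxt-rich cells (at least 10 Oxt UMIs, 69 and 10 cells) 563 and 626 CPM, nearer than Trh cells to the 892 and 899 CPM of those Crh cells. Trh cells (66 and 46) had 150.3 and 144 CPM. Nr3c1 was lower in all 3 than in the Crh cells of the cluster, at 198 and 32.4 CPM in Avp-rich, 32.0 and 0 CPM in Oxt-rich and 58.2 and 90.5 CPM in Trh cells, but over all control Crh cells (129.8 CPM) it was below the control Avp-rich cells. Gal, for the peptide galanin, was lower over all Crh cells (176 and 513 CPM) than in Avp-rich (732 and 1134 CPM) and Oxt-rich cells (579 and 1490 CPM). Within the Avp and Oxt cluster, Crh cells were compared with the cluster's other cells, 222 in the control and 97 in the Sim1Het library. Of these only 106 control but 72 Sim1Het cells lay below the Avp and Oxt limit, and the control ones include 13 cells left out for Avp. The references of the 2 libraries thus differ. Nr3c1 was higher, 644 against 135 CPM in the control and 459 against 234 CPM in the Sim1Het library (log2 ratios 2.26, 1.28 to 3.12, and 0.97, 0.21 to 1.70). Rasgrf1 (2.28 and 1.41), Cd302 (1.41 and 1.3) and Scg2 (1.28 and 0.58) were higher with intervals above 0 in both libraries. For Pou3f4 (-0.78 to 1.66 and -0.43 to 1.45) and Otp (-1.5 to 0.29 and -0.82 to 0.39) the intervals held 0, so at this depth neither could be told from its level in the cluster's other cells.

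Of the markers, only Dlk1 in the Sim1Het library had a higher summed level at each step of the Crh count, and that order rests on 1 deep cell. CPM here leave Crh out of the total. Dlk1 stood at 46.5, 253, 449, 742 and 1011 CPM in Sim1Het cells with 0, 1, 2 to 4, 5 to 9 and at least 10 Crh UMIs. The Sim1Het step of 5 to 9 held 8 cells and 24274 UMIs. A single cell with 12738 UMIs lay in it, with 6 Dlk1 UMIs and 0 of Nr3c1, Pou3f4 and Rasgrf1. Without that cell the Dlk1 level of the step would lie slightly above that of the last step, so the rise at each step does not hold. The levels of the other markers in that step would be higher without it. The order of the last steps in the Sim1Het library is thus not settled for any marker. In the control Dlk1 stood at 73.2, 173, 189.7, 452 and 405 CPM, the last from 3 cells and 4 UMIs. Nr3c1 stood at 35.7, 79.0, 284, 247 and 283 CPM in the Sim1Het library. In the control it stood at 27.8, 74.1, 86.2, 75.4 and 607 CPM, the last from 6 UMIs. Rasgrf1 and Pou3f4 were at 166 and 166 CPM, 41.2 and 41.2 CPM, and 404 and 445 CPM over the last 3 steps of the Sim1Het library, the middle step resting on 1 UMI each. The control cells left out for Avp had 433 CPM of Nr3c1 and 1236 CPM of Dlk1, against 129.8 and 306 CPM over all control Crh cells.

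Between the libraries, 754 genes had at least 50 UMIs over the Crh cells of both. At least 2-fold higher in Sim1Het Crh cells were 17 of them (2.25%) and at least 2-fold lower 18 (2.39%). Of these 1 and 2 also differed by 2-fold that way in the other cells. How many of all 754 did so in the other cells was not counted, so this overlap does not mark the differences as particular to Crh cells. The rule set the 2 groups of members differently: 8 of 29 against 27 of 38 lay in the Avp and Oxt cluster, at a median of 3480 against 1873.5 UMIs per cell. Values within that cluster, from 8 and 27 cells, are therefore given beside each. The median gene differed by 0.01. Resp18 led the higher genes, at 723 CPM in control and 2040 CPM in Sim1Het Crh cells (log2 ratio 1.49, 1.11 to 1.90), 0.90 within the cluster and -0.01 in the other cells. Rgs2, for a brake on G protein signalling, stood at 185 CPM in control and 622 CPM in Sim1Het Crh cells (1.70, within the cluster 1.35, 0.37 to 2.89), and Fkbp2, for a prolyl isomerase of the endoplasmic reticulum, at 287 and 731 CPM (1.32, within the cluster 1.54, 0.44 to 3.46). These 3 were higher also within the cluster. Lrpap1 (1.37) and Cst3, for cystatin C (0.99), stood at 0.33 and 0.51 there, nearer to 0 than over all Crh cells. Gal had 19 control and 47 Sim1Het UMIs (1.5, 0.74 to 2.39) and was lower in the other Sim1Het cells (-0.49), with 0.98 (-0.18 to 2.92) within the cluster. Ubb, for ubiquitin, stood at 1.09 in Crh cells and 0.68 in the others, and at 1.08 within the cluster. Cwc22, for a splicing factor, was as much higher in the other cells (1.85) as in Crh cells (1.72, within the cluster 1.5), so the libraries differed in it in all cells.

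The lower genes were led by Lmo4, for a LIM-only cofactor, with 77 UMIs in control and 12 in Sim1Het Crh cells (-2.35, -3.46 to -1.56), 24 of the control UMIs in 1 cell, and stood at -3.43 within the cluster. Nefm, for a neurofilament subunit, stood at 733 CPM in control and 153 CPM in Sim1Het Crh cells (-2.18, within the cluster -2.43). Of its 79 control UMIs, 31 came from 1 cell, and without that cell the control level was 476 CPM. Syt4, for a synaptotagmin of dense-core vesicles, stood at -1.90, Ywhag at -1.19 and Ap1s2 at -1.35, and within the cluster at -1.43 (-3.05 to 0.18), -1.35 and -0.59 (-2.33 to 1.75). The abundant cytoskeletal genes Tuba1a (-0.87, -1.04 to -0.71), Stmn2 (-0.87) and Actb (-0.82) were lower by less than 2-fold, and within the cluster the log2 ratios were -0.77, -0.65 and -0.63. Actb was also lower in the other cells (-0.55), Tuba1a and Stmn2 by less (-0.17 and -0.28). The markers differed with the placement of the cells. Over all Crh cells the Sim1Het library was higher in Nr3c1 (1.03, 0.07 to 2.13) and Dlk1 (1.12, 0.51 to 1.80), and within the Avp and Oxt cluster the ratios were -0.54 (-1.51 to 0.60) and -0.04 (-0.79 to 0.88). Within that cluster the intervals of Nr3c1, Dlk1 and Scg2 (-0.12, -0.48 to 0.28) held 0, which leaves differences of the size of these bounds undetectable at this depth.

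**Figure D5:**
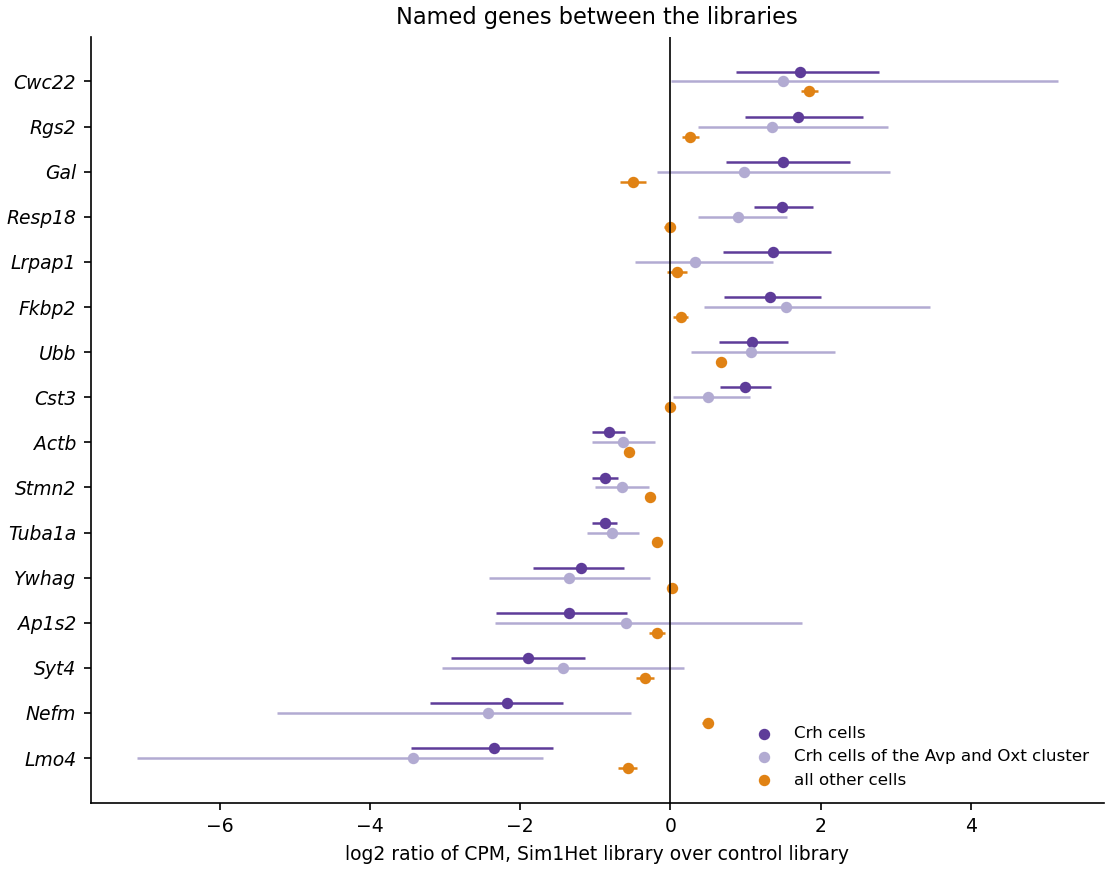
Log2 ratio of CPM, Sim1Het over control library (x axis), with 95% counting intervals, for the 16 genes named between the libraries (y axis), in Crh cells, in the Crh cells of the Avp and Oxt cluster and in all other cells. Most genes stand near 0 in the other cells, whereas Cwc22 is higher in all 3 classes.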

How the data were processed

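The values are raw UMI counts that the authors deposited by gene and cell barcode, in 1 table per library and 1 merged table. The merged table was used and equalled the others. Per the submitters' processing notes, bcl2fastq, Picard, STAR 2.6.0b and Seurat 3 were used with mm10. Annotation, counter and strand setting were not given in the sources used here. Members, gene lists and rules were chosen with earlier results of these data known. UMIs were summed per class and divided by its total (CPM). Crh cells were set against all other cells of the same library for genes with at least 100 UMIs in each library, without Crh, Avp and Oxt, and called at 2-fold in both libraries. Libraries were compared with a pseudocount of 1 UMI, for genes with at least 50 UMIs in Crh cells. A class at 0 was set to a floor of 3 UMIs per library. Intervals (95%) are exact Poisson for levels, conditional exact binomial for ratios and Clopper-Pearson for shares, and cover counting error only. Only the ratio interval was tried on simulated counts. These were Poisson draws at the depth of the control library, which hold no spread between cells. Named are Crh, its 4 markers, the 24 genes higher and 8 lower in Crh cells, and 8 higher and 8 lower between libraries. The ranked genes are those whose interval bound nearest to 0 is farthest from it (over the weaker library for the first 2). They were detected in at least 10% of the cells of the class where they are higher. Also named are up to 5 members of each list with the most UMIs or the farthest bound. Ribosomal, mitochondrial, pseudogene and unnamed genes, those of chromosome Y, Xist and Tsix were left out of the ranking. Other X-linked genes were kept. Some genes that the rule names are not reported here. Cells were clustered with scanpy 1.11.5 and leidenalg 0.10.2 (log-normalised counts, 2000 variable genes, 30 principal components, 20 neighbours, resolution 1, no integration). Python 3.11.15, numpy 2.4.6, scipy 1.17.1 and pandas 2.3.3 were used. Cells were thinned to 857 UMIs to compare shares. Doublets were not called or removed. Alternatives changed the cell rule, depth of the other cells, weights, low-count limits, fold, scaling, pseudocount and clustering; those without the Avp and Oxt limit, with calls by interval, by cluster membership, and equal weights for named genes were chosen after seeing the data. With 1 library per genotype, precision is limited by the 107847 control and 91649 Sim1Het UMIs in Crh cells.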

Additional observations from a re-analysis of the deposited data

Results flagged for a closer look

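Each result here is a log2 ratio of CPM that pointed one way in one class or library and the other way in the second, with both 95% counting intervals off 0. With 1 library per genotype, none of these differences was tested.

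Nefm, which encodes the medium neurofilament subunit, was higher in control Crh cells than in the other control cells (0.90) and lower in Sim1Het Crh cells than in the other Sim1Het cells (-1.86), and Sim1Het over control it was -2.18 in Crh cells and 0.49 in the other cells. In the control library 31 of its 79 UMIs in Crh cells came from 1 cell. Nefl, which encodes the light neurofilament subunit, stood at 0.33 and -1.06 against the other cells of the control and Sim1Het library, and at -0.98 in Crh cells and 0.40 in the other cells between the libraries. Tuba1a (0.11 in the control, -0.59 in the Sim1Het library), Tubb3 (0.20 and -0.32) and Ywhag (0.59 and -0.64) also pointed opposite ways against the other cells. Of the Crh cells, 8 of 29 in the control and 27 of 38 in the Sim1Het library lay in the Avp and Oxt cluster, and within that cluster the control values were -0.18 for Nefm, with an interval that held 0, and -0.81 for Nefl, no longer above the other cells.

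Sst stood at -2.33 in the control, where Crh cells had no UMI and a floor of 3 UMIs was used, and at 1.46 in the Sim1Het library, where 38 of 40 UMIs came from 1 cell.

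Between the libraries, 3 genes of peptides and their processing pointed opposite ways in Crh cells and in the other cells, which Scg2 (0.24 and 0.22) and Scg3 (0.36 and 0.04) did not. Gal was 1.5 in Crh cells and -0.49 in the other cells, Scg5 was 0.61 and -0.18, and Pcsk1n was 0.40 and -0.20. Imprinted genes were among the same results, with Dlk1 at 1.12 in Crh cells and -0.88 in the others, Nnat at 0.38 and -0.20, Gnas at 0.35 and -0.36, and Meg3, in the opposite order, at -0.21 and 0.11. Pcp4, which encodes a calmodulin-binding peptide, was -0.55 in Crh cells and 0.40 in the other cells.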

How the results depend on the processing

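Of 1656 log2 ratios of named genes against the other cells, each under 1 alternative, 1495 kept their value within the interval, 150 moved and 11 reversed; between the libraries 133 of 144 kept it and 11 moved. The counts of genes depended on the settings, and the cause was not tested beyond what a setting's own construction gives. The 46 higher and 186 lower genes became 16 higher at 1 Crh UMI or more, 100 and 122 at 5 or more, 82 and 337 with each cell weighted equally, 155 higher with at least 30 UMIs per library, 8 and 74 with at least 300, 250 and 524 at 1.5-fold, and 286 to 452 and 912 to 1016 when either library was left out, which drops the need for both. Chosen after seeing the data, they were 20 and 40 where the intervals leave out no difference, 241 and 96 for Crh cells of the Avp and Oxt cluster and 71 and 86 for those outside. Between the libraries, the 17 higher and 18 lower genes became 26 higher at 1 Crh UMI or more, 8 and 3 at 5 or more, 11 and 10 without the 5% deepest cells, 31 and 35 with equal weights, 52 and 50 with at least 30 UMIs, 4 and 4 with at least 100, 79 and 64 at 1.5-fold, and 6 and 4 within the cluster. The ratio of shares was 3.0 on thinned counts, and with Crh, Avp and Oxt kept 55.2% of control Crh cells lay in the cluster that held most Crh cells, there led by Crh and Nr3c1. In the Sim1Het library Cartpt (1.17) and Pmch (4.13) reversed at 1 Crh UMI or more, and Sst without the deepest cells (-2.78), within the cluster (-2.11) and with equal weights (-0.73). In the control Pcdh10 (-0.46), Tmsb10 (-0.12), Nefl (-0.81), Nefm (-0.18) and Jun (-0.49) reversed within the cluster, and Tubb3 (-0.046) at 5 Crh UMIs or more. No paired analysis was possible because each genotype had 1 library and the results come from no test. Genes with few UMIs in 29 and 38 cells are limited by depth.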

Other observations

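Of the immediate early genes, Fos and Egr1 were picked after their values had been seen. They come from a list of immediate early and heat shock genes in which only Jun of 11 measured genes was called, and the cause of their levels was not tested. Both had fewer than 50 UMIs in Crh cells and were not compared between the libraries. In the control, Crh cells held 5 Fos UMIs in 4 cells, 46.4 CPM against 32.7 CPM in the other cells. In the Sim1Het library they held 24 Fos UMIs in 9 cells, 262 CPM against 45.1 CPM. All 24 lay in Crh cells of the Avp and Oxt cluster. Egr1 had 3 UMIs in 2 control Crh cells (27.8 against 36.3 CPM) and 14 UMIs in 8 Sim1Het Crh cells (153 against 28.5 CPM). Both genes were thus above the other cells in the Sim1Het Crh cells, and no replicate checks it.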
